A study of Mus musculus with 24 samples.

Results

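The osteocalcin genes measured here are Bglap and Bglap2, 2 of the 25385 genes in the deposited tables. They were chosen by symbol, with earlier results of these data known, and they were followed across all 24 libraries of the study. RNA was sequenced from marrow-derived mesenchymal stem cells (MSC) of the mouse, stromal cells that can be turned into bone-forming osteoblasts or fat-storing adipocytes in culture. The cells were thawed from frozen stocks and expanded for a limited number of passages. The labels give neither strain nor genotype and name no engineered allele. There were 8 groups of 3 libraries. Undifferentiated cells (day 0) received no differentiation medium. Osteogenic cells were kept for 7 or 15 days with beta-glycerophosphate and ascorbic acid. Adipogenic cells were kept for 7 days with insulin, indomethacin and dexamethasone. Each of these 4 states was given either ethanol, the vehicle, or 100 nM 1,25(OH)2D3 (VD3 below) in the last 24 hours. This steroid is the active vitamin D hormone and acts through the nuclear receptor Vdr.

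Osteocalcin is a small secreted protein that mature osteoblasts make in large amounts and that binds to bone mineral. Vitamin K-dependent carboxylation of some of its glutamate residues gives it that affinity, and the uncarboxylated form has been studied as a circulating hormone. The rat and human osteocalcin genes are textbook targets that 1,25(OH)2D3 induces, whereas the mouse genes have been described as unresponsive to it or repressed by it. The mouse carries neighbouring copies of the gene, among them Bglap and Bglap2.

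The coding sequences of Bglap and Bglap2 are shown because their likeness bears on every value below. Both were read from the GENCODE transcripts of the reference annotation, each is 288 bases long, and the capitals mark the bases at which they differ.
Bglap: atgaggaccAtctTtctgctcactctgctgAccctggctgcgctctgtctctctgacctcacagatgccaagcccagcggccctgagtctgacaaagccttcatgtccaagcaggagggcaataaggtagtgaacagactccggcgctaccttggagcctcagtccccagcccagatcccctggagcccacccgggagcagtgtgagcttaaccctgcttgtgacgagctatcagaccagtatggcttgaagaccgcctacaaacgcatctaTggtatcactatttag
Bglap2: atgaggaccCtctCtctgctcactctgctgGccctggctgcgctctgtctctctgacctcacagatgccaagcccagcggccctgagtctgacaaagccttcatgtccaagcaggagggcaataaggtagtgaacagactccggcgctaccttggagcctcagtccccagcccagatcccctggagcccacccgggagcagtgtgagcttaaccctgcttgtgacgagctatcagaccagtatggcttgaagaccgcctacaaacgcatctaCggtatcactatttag
The 4 differences are A10C, T14C, A31G and T273C, with the Bglap base first and positions counted from the A of the start codon. The coding sequences are therefore 98.6% identical, and the longest stretch without a difference ran from base 32 to base 272, 241 bases. Both genes lie on the minus strand of chromosome 3 and have 4 exons. Exon 1 holds 3 of the differences and exon 4 holds the other, so exons 2 and 3 are identical. Over whole transcripts, 74.7% of the 50-base windows of Bglap (292 of 391) also occur unchanged in Bglap2, and 69.2% of those of Bglap2 occur in Bglap.

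The promoter of Bglap is shown because Bglap and Bglap2 moved together across the differentiation states. It is the 250 bases before the transcription start in the RefSeq table (GRCm38.p6, chr3:88384467-88384716, minus strand), where 1 of the 2 genes, Bglap, had an entry. Capitals mark a Runx core (ACCACA) and a TATA box (TATAAA).
Bglap promoter: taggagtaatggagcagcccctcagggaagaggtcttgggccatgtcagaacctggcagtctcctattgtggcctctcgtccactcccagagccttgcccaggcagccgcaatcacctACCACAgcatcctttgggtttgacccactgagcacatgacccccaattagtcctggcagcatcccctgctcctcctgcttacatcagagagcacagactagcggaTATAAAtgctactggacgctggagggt
Motifs were searched on both strands. ACCACA, the core recognised by Runx factors, began at -132 and occurs in 14.1% of 32851 promoter windows of this length, and TATAAA began at -27 and occurs in 12.4%. A CANNTG E box began at -100 (66.2% of promoters). The nuclear receptor half-site GGGTCA matched 2 times, first at -112 on the minus strand (11.7% of promoters). A match is a description of letters and not of a bound site.

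Values are the RPKM of the authors, read counts scaled by transcript length and by the mapped reads of the library, and rows were summed by symbol. Bglap2 had 1 row and Bglap had 2, of which the minor one was 0 in 18 libraries and gave 0.711% of the summed Bglap signal. Bglap2 values in libraries with under 60 of its reads were whole numbers of reads for a length of 471 bases in 11 of 11 libraries. The main Bglap row gave whole reads at 477 bases in 10 of 11. Both lengths were chosen to bring these same low values closest to whole reads, so the agreement is not independent of the choice. The Bglap length also differs from the 440 bases of the transcript whose windows are given above. Read counts and shares below rest on these fitted lengths. How reads that fit both genes were assigned is not given in the sources used here, so the split between Bglap and Bglap2 is uncertain in every library.

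The steps between low values gave a depth per library of 7.13 to 46.8 M reads. A level to read low values against came from 1494 olfactory, vomeronasal and taste receptor genes, which such cells are not known to use. Their median was 3.39 to 4.94 RPKM in 5 of the 6 day 0 libraries, 0.457 in day 0 VD3 replicate 2 and 0.208 to 1.30 in the other 18. Of 9 marrow stromal markers, 5 stood far above the receptor genes in day 0 vehicle libraries: Cxcl12 at 926 to 957 RPKM, Prrx1 at 103 to 108, Pdgfra at 67.7 to 73.5, Pdgfrb at 52.3 to 56.0 and Ly6a at 34.1 to 61.9. The other 4 (Lepr, Thy1, Eng and Nt5e) were at 0.340 to 5.21 RPKM, near or under the receptor level. The 8 adipocyte markers summed to 29060 to 31380 RPKM in adipogenic vehicle libraries against 7.90 to 91.5 in the other vehicle libraries.

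The first question was whether the osteocalcin genes changed as the cells differentiated. By vehicle means as deposited, both were highest in osteogenic cells at day 7, still high at day 15, low at day 0 and lowest in adipogenic cells. The order of day 0 and adipogenic cells depended on how low values were treated, as described below. In vehicle libraries, Bglap averaged 29.4 ± 2.65 RPKM (SD, n = 3) at osteogenic day 7 and 20.02 ± 2.54 at osteogenic day 15, against 4.59 ± 1.45 at day 0 and 1.63 ± 0.177 at adipogenic day 7. Bglap2 averaged 23.6 ± 3.37, 14.5 ± 3.54, 3.44 ± 1.23 and 2.14 ± 0.977 RPKM in the same order. In bulk RNA, a change in the number of osteoblast-like cells cannot be told apart from a change in the RNA of each cell.

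Bglap at day 0 was 5.69, 5.15 and 2.94 RPKM in the vehicle libraries. At osteogenic day 7 it was 26.9, 29.2 and 32.2, and at day 15 it was 19.5, 17.8 and 22.8. All 6 osteogenic libraries stood above all 3 of day 0, and the day 7 libraries also stood above those of day 15. In a limma fit over all 24 libraries on log2(RPKM + 1), Bglap rose by 2.48 (SE 0.28, adjusted p = 1.05e-06) from day 0 to osteogenic day 7, a 6.41-fold higher mean RPKM. To osteogenic day 15 it rose by 1.94 (adjusted p = 9.31e-06), a 4.36-fold higher mean.

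Bglap2 at day 0 was 4.51, 3.71 and 2.09 RPKM. At osteogenic day 7 it was 21.8, 21.5 and 27.5, and at day 15 it was 11.1, 14.2 and 18.2. The osteogenic libraries again stood clear of day 0, and each of the 3 day 7 libraries was above each day 15 library. Bglap2 rose by 2.50 on the log2 scale (SE 0.28, limma adjusted p = 1.09e-06; 6.86-fold in mean RPKM) to day 7 and by 1.82 (adjusted p = 2.07e-05; 4.22-fold) to day 15. Both genes were thus called higher in both comparisons with day 0. Of all 21097 genes tested, 64% were called at day 7 (13.6% higher and 50.4% lower) and 70.9% at day 15 (17.5% higher and 53.4% lower). These comparisons share the day 0 libraries. A p-value here measures only the spread between these libraries, since the labels do not say that replicates were separate cultures.

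**Figure D1:**
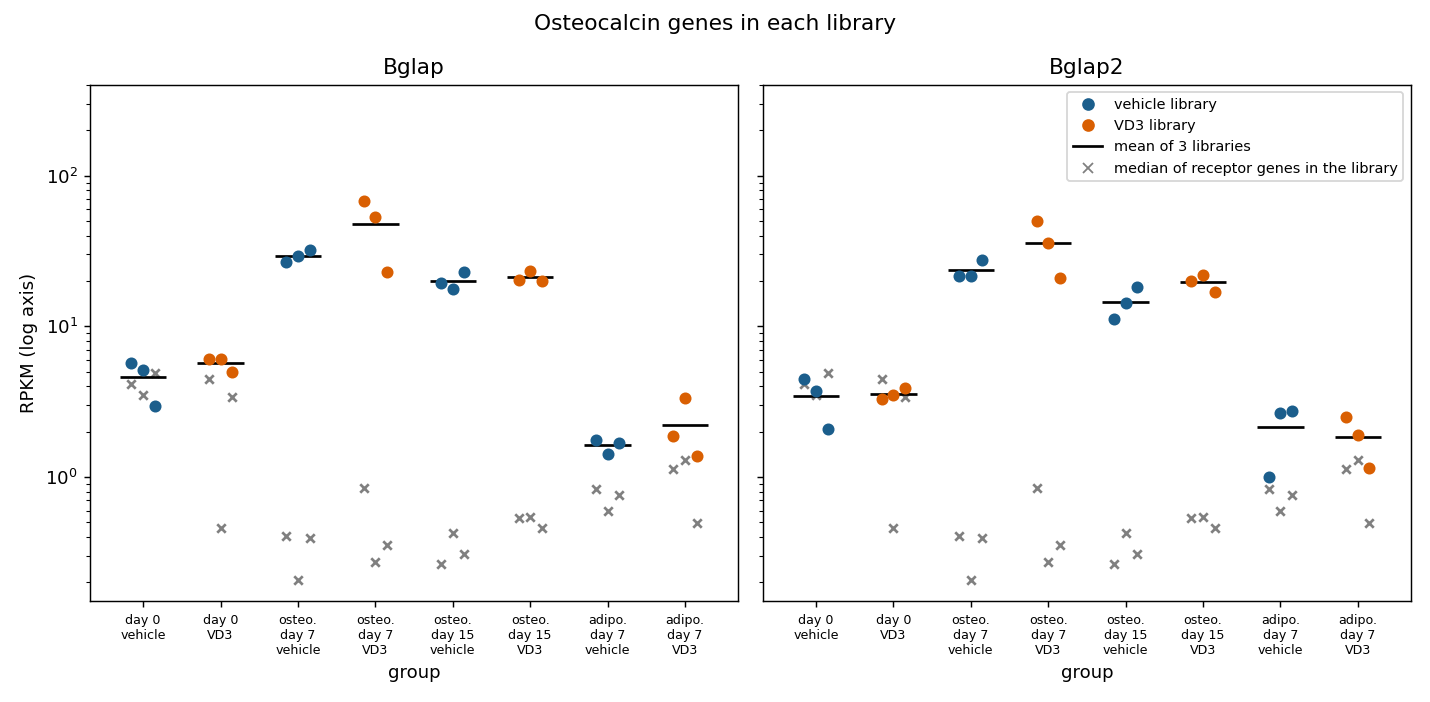
RPKM of Bglap (left) and Bglap2 (right) in each of the 24 libraries on a log axis, with the mean of the 3 libraries of each group as a bar and the receptor-gene median of each library as a cross. Osteogenic libraries lie between 11.1 and 68.0 RPKM, above all other libraries, and most day 0 libraries lie near their receptor-gene median.

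The day 0 level itself lay near that of the receptor genes. In day 0 vehicle replicate 3, Bglap (2.94 RPKM, 10 reads) and Bglap2 (2.09 RPKM, 7 reads) were both under the receptor median of 4.94. In replicates 1 and 2, Bglap was above its library's receptor median of 4.17 and 3.51. In day 0 VD3 replicate 2, where the receptor median was 0.457, Bglap stood at 6.11 RPKM (113 reads) and Bglap2 at 3.503 (64 reads). In the other 5 day 0 libraries both genes were near or below the receptor median. Those 5 libraries had 7.13 to 11.01 M reads, whereas osteogenic day 7 vehicle replicate 3, with 11.8 M reads, had a receptor median of 0.395 and Bglap at 32.2 RPKM. When only day 0 VD3 replicate 2 stood for day 0, VD3-treated osteogenic cells at day 7 and day 15 were still called higher for both genes, by 2.66 and 1.65 on the log2 scale for Bglap and 2.94 and 2.19 for Bglap2 (highest limma adjusted p 0.00584). This alternative was chosen after seeing the data and assumes that the lone library varies like the other groups.

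The comparisons with day 0 moved with scaling. In the fit as deposited, the median log2 difference of all tested genes was -0.46 at osteogenic day 7, -0.55 at osteogenic day 15 and -0.83 at adipogenic day 7, each against day 0. At osteogenic day 7, 2874 genes were higher and 10636 lower as deposited, whereas 6103 were higher and 7950 lower after median-ratio rescaling, and 8707 higher and 1454 lower of 13668 after subtracting the receptor median of each library. At osteogenic day 15 the split went from 3692 higher and 11260 lower to 8534 and 1777 with that subtraction, and at adipogenic day 7 from 2775 and 13814 to 5509 and 3139. Over 13 alternatives other than leaving out a library, the rise to day 7 was 2.48 to 3.997 for Bglap (highest adjusted p 0.000125 in limma) and 2.50 to 4.36 for Bglap2 (4.97e-05). The rise to day 15 was 1.65 to 3.45 (0.00584) and 1.82 to 3.67 (0.000588).

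In adipogenic cells, osteocalcin RNA was low in RPKM and rested on few reads, but it was not among the lowest genes. In vehicle libraries Bglap stood above 56.3% to 58.3% of all genes and Bglap2 above 49.2% to 64.3%. Bglap was 1.77, 1.43 and 1.68 RPKM, from 17 to 21 reads, against receptor medians of 0.599 to 0.835. Bglap2 was 1.01, 2.64 and 2.75 RPKM, from 12 to 34 reads. Every adipogenic library was under every osteogenic one for both genes. Against osteogenic day 7, Bglap was lower by 3.53 on the log2 scale (log2 difference -3.53, SE 0.28, limma adjusted p = 5.79e-10), and osteogenic cells had an 18.1-fold higher mean RPKM. Bglap2 had a log2 difference of -3.02 (SE 0.28, adjusted p = 8.61e-09 in limma), with an 11.04-fold higher mean in osteogenic cells. Against osteogenic day 15 the log2 differences were -3.00 (adjusted p = 8.35e-09) and -2.34 (4.32e-07). Of all genes tested, 37.8% were called in the day 7 comparison (12.4% higher and 25.4% lower) and 38.4% in the comparison with day 15 (12.1% higher and 26.3% lower). Both calls held for both genes under every alternative run, with log2 differences of -4.10 to -2.61 for Bglap and -3.63 to -1.99 for Bglap2 over those other than leaving out a library.

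Whether osteocalcin fell from day 0 to adipogenic day 7 depended on how low values were treated. As deposited, Bglap fell by 1.06 on the log2 scale (SE 0.28, limma adjusted p = 0.00192), while Bglap2 had a log2 difference of -0.51 (adjusted p = 0.0981). In that comparison 78.6% of all genes were called, 13.2% higher and 65.5% lower. With the receptor median subtracted, the differences were 0.01 (adjusted p = 1) for Bglap and 0.91 (0.0533) for Bglap2, and after quantile normalization they were -0.11 (0.808) and 0.54 (0.193). Without day 0 vehicle replicate 3, Bglap2 was called lower (adjusted p = 0.0276). In VD3-treated cells, with only replicate 2, the library of low receptor level, for day 0, they were -1.20 (0.0286) for Bglap and -0.69 (0.23) for Bglap2. The direction between these states thus differed between treatments of the background.

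From osteogenic day 7 to day 15, the libraries of the earlier day stood above those of the later day for both genes, but the differences missed the threshold. The log2 difference was -0.54 for Bglap (95% interval -1.11 to 0.04, limma adjusted p = 0.267) and -0.68 for Bglap2 (-1.26 to -0.10, adjusted p = 0.132), where 13.3% of all genes were called. A fit on only these 6 libraries called both lower, with adjusted p-values of 0.0135 and 0.0256. In VD3-treated cells the drop of Bglap from day 7 to day 15 was called in the fit of all libraries (log2 difference -1.01, adjusted p = 0.0128).

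**Figure D2:**
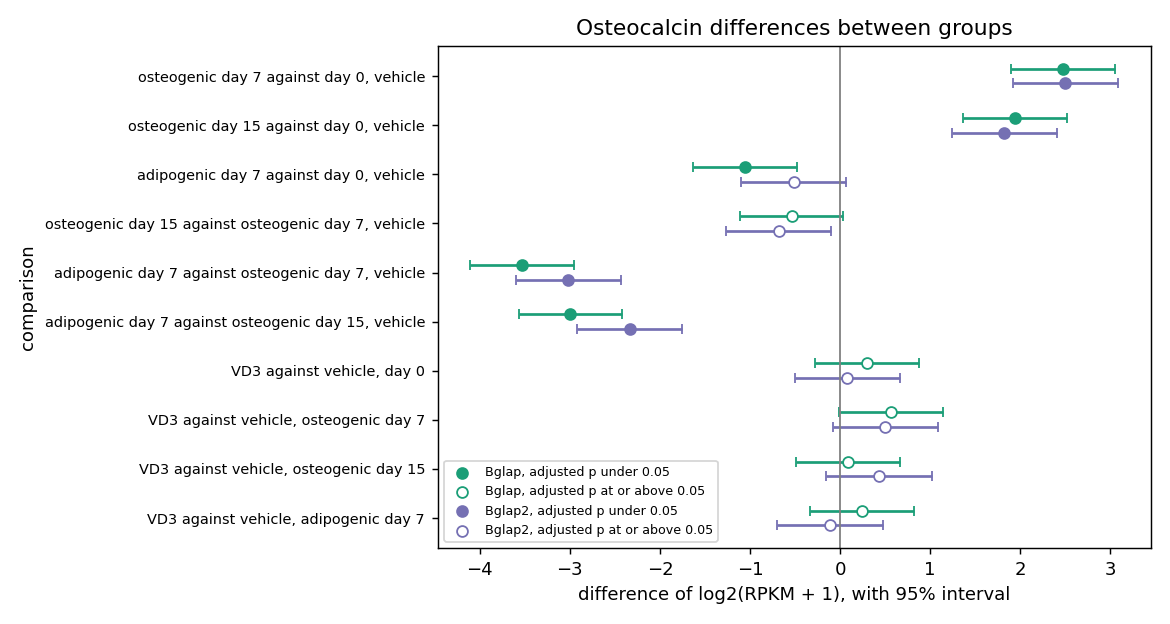
Differences between groups in log2(RPKM + 1), with the 95% interval of the limma fit, for Bglap (green) and Bglap2 (purple); filled points have an adjusted p under 0.05. The rises with osteogenic medium and the gap to adipogenic cells are filled for both genes, and all 8 VD3 points are open.

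The second question was whether VD3 repressed or induced osteocalcin. No difference passed the threshold in any of the 4 states for either gene. None of the 8 intervals reached a decrease of 1 in log2(RPKM + 1). At the low values of day 0 and adipogenic cells, a given fold change in RPKM is smaller on this scale. The intervals of those 2 states therefore limit a repression less than the osteogenic ones do. Some target genes of VD3 responded in the same libraries, and others were not called. Cyp24a1, which encodes the enzyme that degrades 1,25(OH)2D3, was 0.146, 0 and 0.181 RPKM in osteogenic day 7 vehicle libraries and 23.2, 18.6 and 17.6 in the treated ones. It rose by 2.45 (day 0), 4.22 (osteogenic day 7), 3.26 (osteogenic day 15) and 1.71 (adipogenic day 7) on the log2 scale.

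At osteogenic day 7, Bglap was 26.9, 29.2 and 32.2 RPKM with vehicle and 68.0, 53.3 and 23.0 with VD3. Replicates 1 and 2 of the treated cells stood above all vehicle libraries, and replicate 3 stood below them all. The mean was 48.1 ± 23.0 RPKM with VD3, 1.64-fold that of vehicle, and the log2 difference was 0.56 (95% interval -0.01 to 1.14, limma adjusted p = 0.354). Bglap2 was 21.8, 21.5 and 27.5 RPKM with vehicle and 50.0, 35.8 and 21.0 with VD3, with the same library lowest. Its log2 difference was 0.50 (-0.08 to 1.09, adjusted p = 0.458), a 1.51-fold higher mean. Of all genes tested, 5.26% were called in this comparison (2.91% higher and 2.35% lower).

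The call at osteogenic day 7 turned on 1 library. Without VD3 replicate 3, Bglap was called higher (log2 difference 1.01, limma adjusted p = 0.00524), and Bglap2 reached 0.83 (adjusted p = 0.102). Without each of the other 5 libraries in turn, neither gene was called. VD3 replicate 3 had 44.1 M reads, correlated with the other treated libraries at 0.978 and 0.981 (the other pair at 0.986), and had 484 Bglap reads and 436 Bglap2 reads. Cyp24a1 was 17.6 RPKM there, so the treatment response was present. Mgp, another vitamin K-dependent matrix protein, was lower in it (480 RPKM against 813 and 804), and Dmp1, an osteocyte matrix protein, was higher (181 against 126 and 114). What set this library apart was not tested.

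At osteogenic day 15, Bglap was 20.2, 23.48 and 20.1 RPKM with VD3, within 17.8 to 22.8 of vehicle except for the highest library. Its log2 difference was 0.09 (95% interval -0.49 to 0.66, limma adjusted p = 1). Bglap2 was 20.1, 21.99 and 16.9 RPKM with VD3 against 11.1, 14.2 and 18.2. The groups overlapped, with a log2 difference of 0.43 (-0.15 to 1.02, adjusted p = 1). VD3 called 0.773% of all genes at this stage (0.526% higher and 0.246% lower).

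At day 0, Bglap was 6.09, 6.11 and 4.99 RPKM with VD3 (5.73 ± 0.642) against 4.59 ± 1.45 with vehicle, and Bglap2 was 3.28, 3.503 and 3.89 (3.56 ± 0.311) against 3.44 ± 1.23. Both pairs of groups overlapped. The log2 differences were 0.30 (95% interval -0.28 to 0.87, limma adjusted p = 0.435) and 0.08 (-0.51 to 0.66, adjusted p = 0.853), while 15% of all genes were called (3.98% higher and 11% lower). With the receptor median subtracted they were 0.93 (adjusted p = 0.103) and 0.64 (0.308), and after quantile normalization 0.76 (0.153) and 0.46 (0.441). Without vehicle replicate 3 they were 0.066 (0.895) and -0.16 (0.729). The receptor median was near the osteocalcin level in every day 0 library but VD3 replicate 2, which limits what a difference here can show.

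In adipogenic cells, Bglap was 1.87, 3.36 and 1.38 RPKM with VD3 (2.20 ± 1.03), and Bglap2 was 2.50, 1.90 and 1.14 (1.85 ± 0.680). Both overlapped with vehicle. The log2 difference was 0.24 (-0.33 to 0.82, limma adjusted p = 1) for Bglap and -0.11 (-0.70 to 0.47, adjusted p = 1) for Bglap2, where 2.08% of all genes were called (1.51% higher and 0.574% lower). Whether the VD3 effect differed between states was tested directly in 4 contrasts per gene, osteogenic and adipogenic day 7 each against day 0, osteogenic day 15 against day 7, and adipogenic against osteogenic day 7. None was called for either gene, with adjusted p-values of 0.493 to 1 in limma. Of all genes, 2.55%, 3.47%, 0.185% and 1.82% were called in these contrasts.

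Ordered by mean over the 8 groups, Bglap ran from osteogenic day 7 with VD3, through osteogenic day 7 vehicle, osteogenic day 15 with VD3 and with vehicle, then day 0 with VD3 and with vehicle, to adipogenic VD3 and vehicle. Neighbours in this order did not overlap at 2 steps, between osteogenic day 7 vehicle and osteogenic day 15 with VD3, and between osteogenic day 15 vehicle and day 0 with VD3. Bglap2 had the same order except that adipogenic vehicle stood above adipogenic VD3, and its neighbours did not overlap at 1 step, between osteogenic day 15 vehicle and day 0 with VD3. All other neighbours in these orders overlapped.

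The balance of the 2 genes ranged more widely in adipogenic libraries than in osteogenic ones, where reads were plentiful. The ratio of Bglap to Bglap2 RPKM was 0.541 to 1.86, with Bglap above Bglap2 in 21 libraries and below in 3. Over the 24 libraries log2(RPKM + 1) of the 2 genes correlated at 0.976. This describes libraries that fall into separate groups and genes that may share reads. In osteogenic vehicle libraries Bglap took 54.1% to 63.9% of the recovered Bglap and Bglap2 reads. In osteogenic day 15 libraries with VD3 it took 50.5%, 52.0% and 54.6%, under all 3 vehicle libraries (63.9%, 55.5% and 55.9%). The lowest share was 35.4% in adipogenic vehicle replicate 2, with an exact (Clopper-Pearson) 95% interval of 22.2% to 50.5% from 17 Bglap and 31 Bglap2 reads. Among osteogenic libraries, the highest share was 63.9% (59.4% to 68.3%) in day 15 vehicle replicate 1. The lowest was 50.5% (47.0% to 54.0%) in day 15 VD3 replicate 1, and these intervals did not overlap. Intervals cover counting error only.

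Tested as a log2 ratio in each state, the balance showed no difference with VD3 that passed the threshold, which 3 against 3 libraries cannot reach. The difference between VD3 and vehicle was -0.37 at osteogenic day 15 (exact two-sided permutation p = 0.1, 0.4 after Benjamini-Hochberg adjustment over 4 comparisons), which is the smallest p this design allows. It was 0.06 at osteogenic day 7 (exact p = 0.7, adjusted 0.7) and 0.25 at day 0 (exact p = 0.3, adjusted 0.6). In adipogenic cells it was 0.49 (exact p = 0.5, adjusted 0.667), where counts were low.

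**Figure D3:**
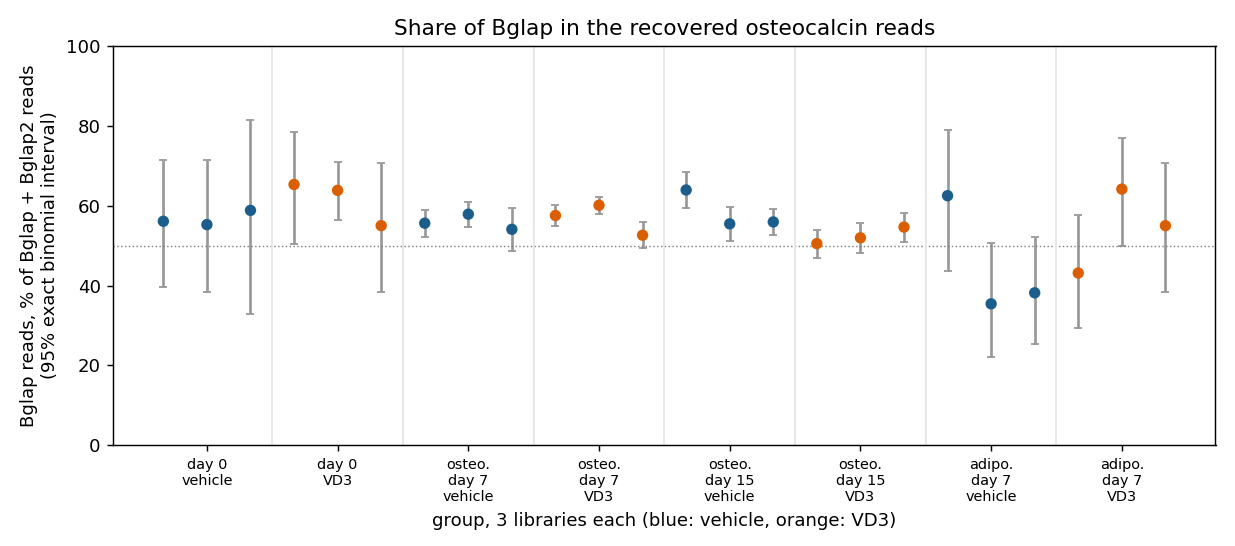
Bglap reads as a percentage of Bglap and Bglap2 reads in each library, with the exact 95% binomial interval (blue vehicle, orange VD3). Intervals are narrow in the osteogenic groups, where shares run from 50.5% to 63.9%, and wide at day 0 and in adipogenic cells, where as few as 17 reads were counted.

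Genes around osteocalcin in its biology were described from lists ordered by role, which were drawn up with earlier results of these data known. Among genes for carboxylation and processing, 2 of 9 tested rose and 3 fell from day 0 to osteogenic day 7 (list median 0.06 against -0.46 for all genes), and 4 rose and 0 fell after median-ratio rescaling. Of all genes, 13.6% rose and 50.4% fell as deposited, and more rose and fewer fell with that rescaling. Galnt3, which adds O-linked sugars, rose by 1.18, and Fam20c, a kinase of secreted matrix proteins, rose by 0.90. Ggcx, the gamma-carboxylase that modifies osteocalcin, was 16.8 ± 1.11 RPKM at day 0 and 14.1 ± 0.710 at osteogenic day 7, a log2 difference of -0.24 that was not called. With VD3 at osteogenic day 7, Mgp rose by 1.19 and Fam20c by 0.89, and none of the 9 fell (2.91% of all genes rose and 2.35% fell). The other log2 differences of Mgp with VD3 were 0.63 at day 0, 0.63 at osteogenic day 15 (not called) and 2.68 in adipogenic cells.

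Receptors proposed for osteocalcin (Gprc6a, Gpr158 and Gpr37) were low throughout the differentiated cells. Gprc6a was 0.209 to 0.542 RPKM in osteogenic day 7 vehicle libraries. At day 0 it was 3.64 to 6.07 RPKM in vehicle libraries, near their receptor-gene medians, and 0.307 in day 0 VD3 replicate 2. All 3 were called lower in osteogenic day 7 than in day 0 cells (2 of 3 after quantile normalization), where 50.4% of all genes were lower as deposited. None of the 3 was called with VD3 in any state, where 0.773% to 15% of all genes were called.

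Of 33 regulators of osteocalcin transcription tested, 10 rose and 6 fell from day 0 to osteogenic day 7 (list median 0.16), against 13.6% higher and 50.4% lower among all genes. After median-ratio rescaling 19 rose and 4 fell, and with the receptor median subtracted 24 rose and 1 fell of 31. In both settings more of all genes also rose, and fewer fell, than as deposited. With the subtraction more of all genes rose than fell. Sp7, the osteoblast transcription factor osterix, rose by 2.10, Atf4, which acts at the osteocalcin promoter, rose by 1.36, and Hes1, a Notch target, rose by 1.08. Runx2, the factor that binds the Runx core, was 7.62 ± 0.101 RPKM at osteogenic day 7 and 5.72 ± 1.26 at day 0. Its log2 difference of 0.38 was not called. In day 0 vehicle libraries Runx2 (4.29 to 6.68 RPKM) was near the receptor medians (3.505 to 4.94), which limits what this difference can show. Against osteogenic day 7, adipogenic cells had 17 of the 33 lower and 5 higher (25.4% and 12.4% of all genes), among them Runx2 at -1.36 and Sp7 at -1.54. With VD3 at osteogenic day 7, 6 rose and 1 fell as deposited (2.91% and 2.35% of all genes), and 3 rose and 0 fell after median-ratio rescaling. Vdr rose by 1.06, Cebpb, a factor of the C/EBP family, by 0.97 and Cebpd of the same family by 0.75.

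Most other genes of the osteoblast and its matrix rose with osteogenic medium, and with VD3 some rose and some fell. Of 17 osteoblast and bone matrix genes, 12 rose and 2 fell at osteogenic day 7 against day 0 (list median 1.00; 14 and 0 after median-ratio rescaling), and of 7 osteocyte genes 5 rose and 0 fell (list median 1.36). Of all genes, 13.6% rose and 50.4% fell as deposited, and more rose and fewer fell with that rescaling. Ibsp, bone sialoprotein, rose by 4.65, Col1a1, the main collagen of bone, by 2.12 and Dmp1 by 6.12. In adipogenic against osteogenic day 7 cells, 14 of the 17 and 5 of the 7 were lower, and 2 and 0 were higher, against 25.4% lower and 12.4% higher of all genes. With VD3 at osteogenic day 7, 3 of the 17 rose and 2 fell, and 0 of the 7 rose and 2 fell, against 2.91% and 2.35% of all genes. Mmp13, a collagenase, rose by 2.62, whereas Ibsp fell by 1.57 and Phex, an osteocyte peptidase, fell by 1.17.

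Ibsp shows a called fall with VD3 in the state where osteocalcin had none. It was 278, 256 and 258 RPKM with vehicle at osteogenic day 7 and 74.7, 87.2 and 106 with VD3, so the groups did not overlap. It also fell in the other 3 states, by 2.02 at day 0, 1.32 at osteogenic day 15 and 4.64 in adipogenic cells. Spp1, osteopontin, another mineral-binding protein, rose by 0.90, 0.99, 0.90 and 0.99 on the log2 scale in day 0, osteogenic day 7, osteogenic day 15 and adipogenic cells. Of 11 tested VD3 target genes, 5, 6, 3 and 5 rose in these states and 0 fell in any of them, where 3.98%, 2.91%, 0.526% and 1.51% of all genes rose. Differences between the osteocalcin genes and these genes were not tested.

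**Figure D4:**
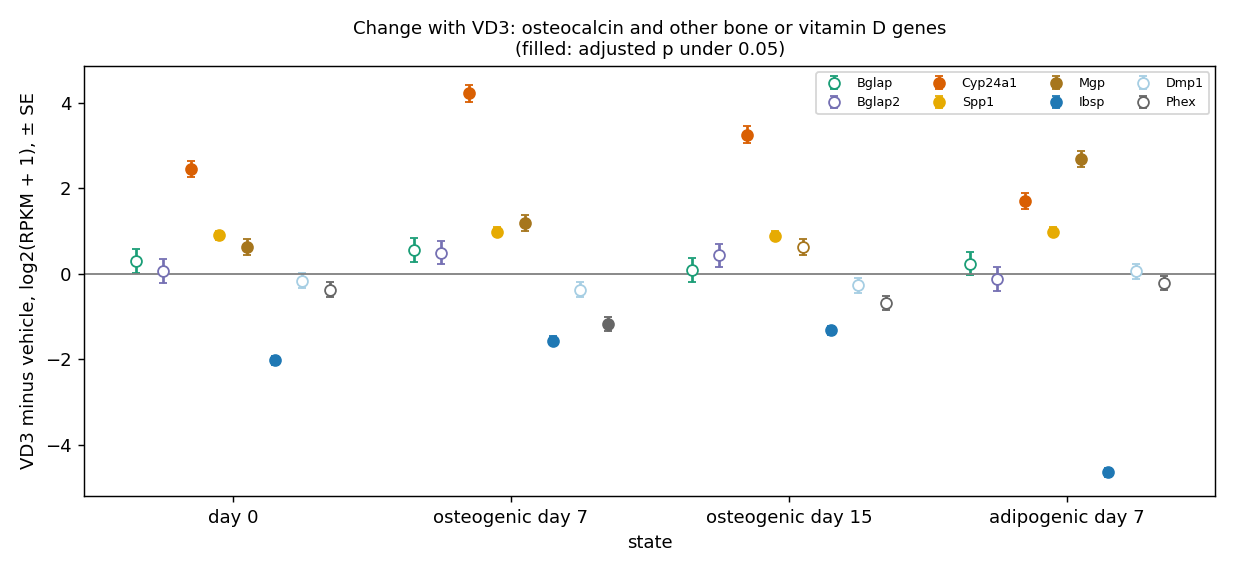
Log2 difference between VD3 and vehicle, with its standard error, for the osteocalcin genes and 6 bone or vitamin D genes in each state; filled points have an adjusted p under 0.05 in limma. Cyp24a1 and Spp1 are filled above 0 and Ibsp is filled below 0 in all 4 states, while no Bglap or Bglap2 point is filled.

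Genes that lie next to the osteocalcin cluster in the RefSeq annotation were also measured. Of 8 tested, 4 rose and 1 fell at osteogenic day 7 against day 0 (6 and 0 after median-ratio rescaling). Of all genes, 13.6% rose and 50.4% fell as deposited, and more rose and fewer fell with that rescaling. Smg5, a nonsense-mediated decay factor, was at 0.58 and Lmna, which encodes lamin A/C, at 0.53. In adipogenic against osteogenic day 7 cells 6 were lower and 1, Slc25a44, was higher (1.11), against 25.4% and 12.4% of all genes. With VD3 none of the 8 was called in either osteogenic state or in adipogenic cells, and 1 was lower at day 0. Of all genes, VD3 called 5.26% at osteogenic day 7, 0.773% at osteogenic day 15 and 2.08% in adipogenic cells. At day 0, 11% of all genes were lower. With so few neighbours, these counts do not set them apart from other genes.

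The genes whose pattern was most like that of Bglap over the 24 libraries were ranked by Pearson correlation of log2(RPKM + 1) among 9136 genes of at least 5 RPKM in at least 3 libraries. Bglap and Bglap2, which correlated at 0.976 with each other, were left out of each other's ranking. The genes ranked for Bglap were led by Sec31a, a coat protein of vesicles leaving the endoplasmic reticulum (0.974). Next came Lepre1, a collagen prolyl hydroxylase (0.974), Slc6a8, the creatine transporter (0.968), and Mef2a, a transcription factor (0.964). Pofut2, Prickle1, B3gnt9-ps and Serpine2 followed at 0.962 to 0.959. For Bglap2 the closest were Mef2a (0.970), Pofut2 (0.964), Sec31a (0.958) and Fto (0.947), followed by Lepre1, Hook3, Ier3 and Trim44 at 0.945 to 0.942. Prickle1, a planar polarity gene, had means of 11.3 RPKM at osteogenic day 7 with vehicle and 19.1 with VD3, and 0.705 in adipogenic vehicle cells. Sec31a ranged over 15.4 to 43.3 RPKM in group means. The correlations describe points that share libraries and fall into groups.

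Markers of other cell types were counted in the same libraries. The haematopoietic list (7 of 8 genes measured) summed to 8.71 to 12.2 RPKM at day 0 and 1.53 to 2.27 at osteogenic day 7 with vehicle, and the megakaryocyte and platelet list (6 genes) to 5.53 to 7.33 and 0.979 to 2.51, with Gp9 at 0 in all 3 osteogenic day 7 vehicle libraries. The osteoclast list (5 of 7 genes measured) summed to 57.8 to 60.2 RPKM at day 0 and 91.7 to 112 at osteogenic day 7, where 1 of the 5 genes had a mean of at least 1 RPKM, Ctsk. The chondrocyte list (6 genes) summed to 5.70 to 8.55 and 7.43 to 8.19, and the endothelial list (5 genes) to 5.07 to 7.31 and 3.07 to 3.42. In day 0 vehicle libraries the highest mean among haematopoietic, platelet, chondrocyte and endothelial genes was 3.92 RPKM (Lyz2). This was under the mean receptor median of 4.21 RPKM there, which limits what differences from day 0 on these lists can show. The part of other cells in the osteocalcin rise was not tested.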

How the data were processed

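Directional RNA-seq libraries were made from ribosome-depleted total RNA, per the labels' protocols. The deposited values are RPKM per transcript, computed by the authors. Per the submitters' processing notes, TopHat and the mm9 build were used. The quantifier, the annotation and the handling of reads that map to both osteocalcin copies are not given in the sources used here. Rows were summed by symbol. The 40 rows whose symbols had become dates (25 symbols) were dropped, which left 25385 genes. Genes entered the test when 3 or more libraries reached 1 RPKM (21097 genes). Differences of log2(RPKM + 1), a scale that understates changes of low genes, were fitted by limma (version 3.58.1, R 4.3.3). The fit covered 8 groups in all 24 libraries, with trend and robust empirical Bayes, Benjamini-Hochberg adjustment over all genes in each comparison and a threshold of 0.05. It was also tested on simulated data. A gene rose or fell, or was called, where it passed that threshold.

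Depth came from the steps between 300 low receptor values a library, of which 98.3% to 100% lay within 0.1 of whole reads. Osteocalcin reads were recovered with that depth and the fitted lengths. No 2 libraries were identical (0 pairs), and libraries of a group correlated at 0.926 to 0.993. Ratios were tested by exact permutation. Genes alike in pattern were the 8 highest correlations for each osteocalcin gene. The genes named from each list were picked after their values were seen. The members, lists and tests were chosen with earlier results of these data known. Sequences came from a GRCm38 reference and were not used for coordinates of the deposited values. Alternatives were a pseudocount of 0.1, no filter or a filter at 5 RPKM, median-ratio and quantile scaling, a replicate term, plain empirical Bayes, the largest transcript, both genes summed, subtraction of the receptor median, a fit restricted to the groups of a comparison, the differentiation comparisons within VD3-treated cells, and omission of every single library. Whether replicate numbers pair the libraries is not known, and the main fit treated them as unpaired. In no comparison did all 3 same-numbered pairs correlate above 0.1, which cannot exclude pairing. In adipogenic against osteogenic day 7 vehicle cells, 5 of 6 libraries correlated best with their own number. Python 3.11.15 with pandas 2.3.3, numpy 2.4.6, scipy 1.17.1 and matplotlib 3.10.9 did the rest.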

Additional observations from a re-analysis of the deposited data

How the results depend on the processing

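Of 542 alternative values with a test, 512 kept direction and side of the threshold, 22 changed sign, 7 gained a call and 1 lost it. The osteogenic rises and the gap between adipogenic and osteogenic cells held under every alternative run. With median-ratio rescaling, the difference of VD3 effects between osteogenic day 7 and day 0 was -0.042 for Bglap, and that between osteogenic days 15 and 7 was 0.046 for Bglap2. With quantile normalization, adipogenic day 7 against day 0 was -0.11 for Bglap and 0.54 for Bglap2, and the VD3 effect of osteogenic day 7 minus day 0 was -0.14 for Bglap. With the receptor median subtracted, adipogenic day 7 against day 0 was 0.012 and 0.91, and the VD3 effect of osteogenic day 7 minus day 0 was -0.37 and -0.14. With both genes summed, adipogenic day 7 against day 0 was -0.89 (called) and VD3 in adipogenic cells 0.062. Fitted on only the libraries compared, osteogenic day 15 against day 7 was -0.54 for Bglap and -0.68 for Bglap2, both called. In VD3-treated libraries, Bglap was -1.01 in that comparison and Bglap2 -0.70 in adipogenic day 7 against day 0, both called. The cause of these changes was not tested.

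Leaving out each library gave 0.25 to 1.01 for Bglap with VD3 at osteogenic day 7. For Bglap with VD3 in adipogenic cells the range was -0.0044 to 0.43. The VD3 effect of osteogenic day 7 minus day 0 spanned -0.049 to 0.71 for Bglap, and that of adipogenic day 7 minus day 0 spanned -0.30 to 0.18 for Bglap and -0.48 to 0.051 for Bglap2. For Bglap2, adipogenic day 7 against day 0 spanned -0.76 to -0.22, VD3 at day 0 -0.16 to 0.26, VD3 in adipogenic cells -0.41 to 0.079, and the VD3 effect of osteogenic day 15 minus day 7 -0.40 to 0.21. The log2 ratio of Bglap to Bglap2 with VD3 at osteogenic day 7 spanned -0.037 to 0.18.

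The replicate block changed no call of either gene. For osteogenic day 7 against day 0 it gave 2.48 for Bglap (limma adjusted p = 7.34e-07) and 2.50 for Bglap2 (3.52e-06), and for VD3 at osteogenic day 7 0.56 (0.296) and 0.50 (0.487). Calls over all genes went from 614 higher and 496 lower to 587 and 481 with the block in that VD3 comparison. Between 0 and 5 of 6 libraries in a comparison correlated best with their own number. At day 0 and in adipogenic cells 7 to 34 reads per gene were counted, except in day 0 VD3 replicate 2, which limits the precision of those values.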
